A study of Homo sapiens with 118 samples.

Results

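Expression of CYP2C8, CYP2C18, CYP2C19, CYP3A4, CYP3A5, CYP3A7 and CYP3A43, 7 cytochrome P450 genes of the CYP2C and CYP3A subfamilies, and of POR, the gene of their electron donor, was followed in HepaRG cells exposed to histone deacetylase inhibitors. A row of the count table was taken when its gene symbol equalled one of these 8 names. This gave 12 detector probes, called features here and named by symbol and probe number, of 22068 in the table. CYP2C19, CYP3A4, CYP3A5 and POR had 2 features each and the other genes had 1. All 12 passed the filter on low counts in all 8 chemicals.

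HepaRG is an established human liver tumour line that differentiates in culture into hepatocyte-like and biliary-like cells. The differentiated cells were exposed for 72 hours, with daily renewal, to 1 of 8 chemicals. These were the hydroxamic acids panobinostat, scriptaid, trichostatin A and vorinostat, the benzamides mocetinostat and tacedinaline, the cyclic tetrapeptide apicidin and the fatty acid valproic acid. Each was used at 5 steps of concentration, written C1 for the lowest up to C5 for the highest. Of 40 groups, 38 had 3 libraries and 2 (panobinostat C3 and trichostatin A C4) had 2, without replicate 3. Replicates 1, 2 and 3 came from 3 HepaRG batches of this 1 line, so that p-values measure the spread between such batches and not between people. The plate labels were E for scriptaid, tacedinaline and vorinostat and H for the other chemicals. Differences between these sets of chemicals cannot be told apart from differences between plates.

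The concentrations of apicidin were 0.041722 (C1), 0.125167 (C2), 0.3755 (C3), 0.5 (C4) and 0.86 µM (C5), and those of mocetinostat were 0.177222 (C1), 0.531667 (C2), 1.595 (C3), 2.5 (C4) and 3.9 µM (C5). Panobinostat was used at 0.001468 (C1), 0.004403 (C2), 0.01321 (C3), 0.03963 (C4) and 0.084 µM (C5), and scriptaid at 4.94 (C1), 14.82 (C2), 44.46 (C3), 60 (C4) and 94.5 µM (C5). Tacedinaline was used at 1.143333 (C1), 3.43 (C2), 10.29 (C3), 30.87 (C4) and 44 µM (C5), and trichostatin A at 0.018811 (C1), 0.056433 (C2), 0.1693 (C3), 0.5079 (C4) and 1.5237 µM (C5). Doses therefore differ between chemicals, and the chemicals are set side by side here and not ranked by potency. Vorinostat was used at 0.404778 (C1), 1.214333 (C2), 3.643 (C3), 10.929 (C4) and 23.5 µM (C5). The dose labels of valproic acid read 100.478 (C1), 301.433 (C2), 904.3 (C3), 2712.9 (C4) and 3038 µM (C5), but the protocol text has smaller numbers, also in µM, and which unit holds for these 5 values is uncertain. Solvent controls were not analysed here, and each step was compared with C1 of its own chemical. A response already present at C1 would not be seen.

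Libraries were made by TempO-Seq, in which a pair of detector probes is ligated on its target transcript, amplified and sequenced. Total counts per library ranged from 1061359 to 5250260, with a median of 3702007. Totals fell with concentration in several chemicals, most in vorinostat, from 1785295 to 4134455 counts at C1 and from 1061359 to 1879287 at C5. With libraries thinned to equal totals within a chemical, 58 of 91 tests of members were called falling at C5, against 61 of 96 without thinning. Of the 61 calls, 2 were not tested after thinning and 1 was lost. The library labelled trichostatin A C1 replicate 3 stood apart from its group in the hepatocyte markers and in most members, and results of trichostatin A are given with and without it. Levels are given as CPM, counts scaled to the library total, after scaling by the trimmed mean of M values over all libraries. They are compared between libraries for 1 feature and never between features, because probes differ in efficiency.

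Cytochrome P450 enzymes of the endoplasmic reticulum insert oxygen into drugs, steroids and fatty acids, and the CYP3A and CYP2C subfamilies carry much of the oxidative drug metabolism of the human liver. Each reaction needs electrons from NADPH, which cytochrome P450 oxidoreductase, the product of POR, passes to the haem iron of the enzyme. Transcription of the genes in hepatocytes depends on liver-enriched factors such as HNF4A and on the xenobiotic receptors NR1I2 (pregnane X receptor) and NR1I3 (constitutive androstane receptor), which act with RXRA. CYP3A4 is the main adult enzyme, CYP3A5 overlaps with it in substrates, CYP3A7 is the enzyme of the fetal liver, and CYP3A43 is a low-abundance relative. CYP2C8 oxidises drugs such as paclitaxel and arachidonic acid, CYP2C19 activates clopidogrel and clears proton pump inhibitors, and CYP2C18 has little known enzyme activity in liver.

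The question of the first comparison was which of these transcripts differed between the highest and the lowest concentration of each inhibitor. A feature was called when the edgeR quasi-likelihood test gave a Benjamini-Hochberg adjusted p below 0.05 and the fold change was at least 1.5. In 7 of 8 chemicals, 7 to 9 of the 10 P450 features were called falling at C5, and in trichostatin A none was. Over 96 tests (12 features in 8 chemicals), 61 were called falling, or 63.5%, against 13.4% of 101732 tests over all features, and 1 was called rising, or 1.04%, against 11.6%. The P450 features took 60 of the falling calls out of 80 tests. Of the 61 falling calls, 52 were also made without each batch in turn, and 9 were lost without at least 1 batch. The 9 were those of CYP2C19_1714 in 4 chemicals, CYP3A43 and CYP3A4_90076 in panobinostat and valproic acid, and POR_23019 in panobinostat. In bulk lysates fewer cells of a type and less RNA per cell cannot be told apart.

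By chemical, 9 of the 12 features fell at C5 in each of apicidin, mocetinostat, panobinostat, scriptaid, tacedinaline and vorinostat. The share of all features that fell was 15.0% in apicidin, 15.7% in mocetinostat and 9.46% in panobinostat. It was 17.0% in scriptaid, 20.1% in tacedinaline and 24.9% in vorinostat. In valproic acid 7 features fell, against 6.22% of all features, and in trichostatin A none was called, against 0.0154%. The median log2 change of the 10 P450 features was -5.92 in tacedinaline, -5.79 in mocetinostat and -5.08 in vorinostat, where the median over all features lay between -0.00 and 0.08. It was -4.66 in scriptaid and -3.89 in apicidin, and smaller in size in panobinostat (-1.57) and valproic acid (-1.19). With features that had at most 3 counts in every library set to the bound that 3 counts allow, the largest shift was in vorinostat, to -4.62.

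**Figure D1:**
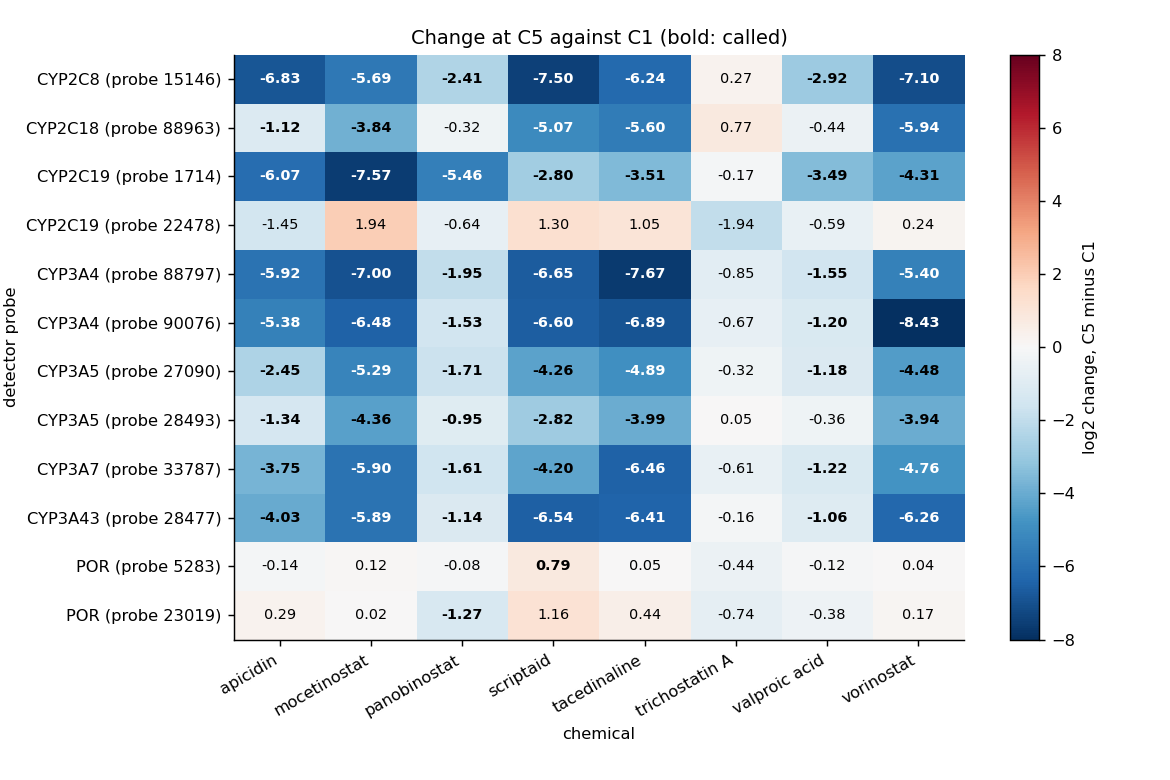
Log2 change at C5 against C1 from the edgeR fit for each of 12 detector probes (vertical axis) in each of 8 chemicals (horizontal axis), blue for lower and red for higher at C5, with bold type for called features. The P450 probes other than CYP2C19_22478 are blue in 7 chemicals, trichostatin A has no called probe, and POR_5283 lies between -0.44 and 0.79.

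The 4 CYP3A genes lie side by side on chromosome 7. Their promoter sequences are shown because the 4 transcripts fell together and the sequences are much alike. The sequences are those of RefSeq for GRCh38.p14, from 200 bases before the start site up to the base before it, 5′ to 3′ on the coding strand. Capitals mark matches to an everted repeat of the nuclear receptor half-site (TGAACT, then 6 bases of any kind, then AGGTCA), to the half-site AGGTCA itself, and to TATAAA, searched on both strands.
CYP3A4 (chr7:99784185-99784384, minus strand): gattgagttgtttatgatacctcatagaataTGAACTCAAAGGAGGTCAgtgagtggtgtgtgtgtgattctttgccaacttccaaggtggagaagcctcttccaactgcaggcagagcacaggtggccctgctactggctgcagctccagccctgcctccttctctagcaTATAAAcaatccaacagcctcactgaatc
CYP3A5 (chr7:99679997-99680196, minus strand): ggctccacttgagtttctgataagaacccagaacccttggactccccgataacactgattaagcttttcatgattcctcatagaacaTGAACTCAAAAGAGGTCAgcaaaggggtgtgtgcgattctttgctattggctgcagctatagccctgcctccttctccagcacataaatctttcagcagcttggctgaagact
CYP3A7 (chr7:99735197-99735396, minus strand): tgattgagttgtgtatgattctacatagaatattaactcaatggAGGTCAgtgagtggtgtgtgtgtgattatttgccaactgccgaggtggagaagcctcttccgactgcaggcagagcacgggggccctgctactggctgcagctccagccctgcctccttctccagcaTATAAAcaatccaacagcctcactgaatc
CYP3A43 (chr7:99827813-99828012, plus strand): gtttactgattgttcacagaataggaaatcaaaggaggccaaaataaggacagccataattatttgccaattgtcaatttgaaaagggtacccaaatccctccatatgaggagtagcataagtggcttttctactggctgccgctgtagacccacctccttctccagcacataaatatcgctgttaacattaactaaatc

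The promoters of CYP3A4 and CYP3A7 were 94.3% identical over their aligned bases, in the window that the table holds. CYP3A4 and CYP3A5 were 85.9% identical, and CYP3A4 and CYP3A43 71.8%. The everted repeat stood in 3 of 35116 promoters of the table (0.00854%), those of CYP3A4, CYP3A5 and ITGB1BP2. It covered bases -169 to -152 of CYP3A4 and -113 to -96 of CYP3A5. CYP3A7 held the half-site alone, at -156 to -151, as did 13.8% of all promoters for that motif on either strand. TATAAA stood at -29 to -24 in CYP3A4 and in CYP3A7 and was found in 11.5% of all promoters. The letters of a match are a description, and binding was not measured.

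CYP3A4 fell furthest of the 4 in the mean over chemicals, and it fell in 7 of them. With tacedinaline, the feature CYP3A4_88797 was at 852, 548 and 466 CPM in the 3 C1 libraries and at 3.50, 1.72 and 3.71 CPM at C5. The log2 change was -7.67 ± 0.392 (SE; edgeR adjusted p = 3.7e-20). With mocetinostat its level was 626, 685 and 518 CPM at C1 and 3.39, 6.96 and 3.06 CPM at C5. In both chemicals every C1 library lay far above every C5 library.

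In apicidin CYP3A4_88797 went from 522, 516 and 328 CPM to 6.84, 5.62 and 9.93 CPM, a log2 change of -5.92 ± 0.277. In scriptaid it went from 281 to 396 CPM in the 3 C1 libraries to 5.52, 0.852 and 3.87 CPM. In vorinostat it went from 213, 208 and 137 CPM to 0, 8.56 and 1.75 CPM. The C5 libraries of these 5 chemicals all lay between 0 and 9.93 CPM. Those of apicidin, the highest group, lay above all those of tacedinaline and scriptaid and overlapped with those of mocetinostat and vorinostat. In panobinostat the C5 level was 78.7, 67.1 and 45.1 CPM, from 249, 253 and 229 CPM, and the log2 change was -1.95 ± 0.211 (edgeR adjusted p = 1.05e-06). In valproic acid it was 215, 184 and 113 CPM, from 449, 544 and 505 CPM, with a change of -1.55 ± 0.211. Levels at C1 also differed between chemicals, with group means from 160 to 622 CPM.

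**Figure D2:**
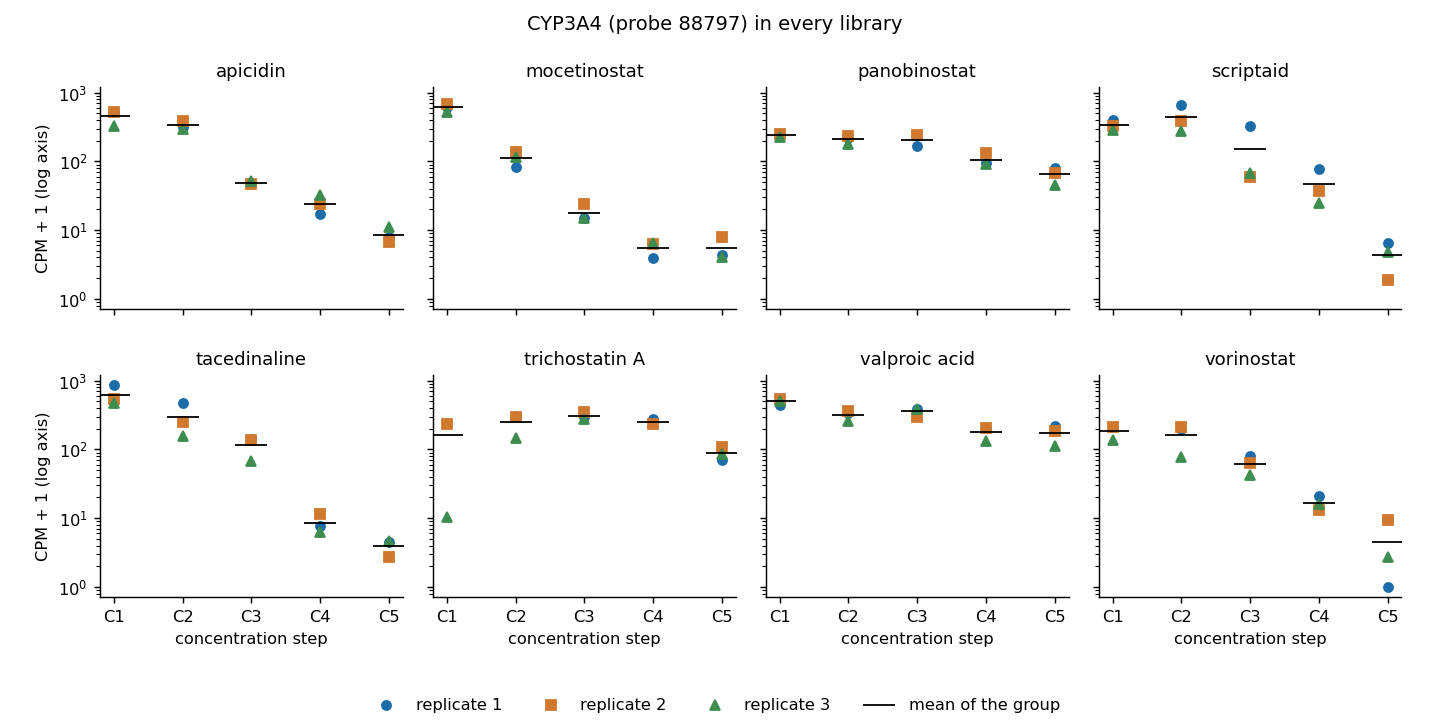
Level of CYP3A4_88797 as CPM plus 1 on a log axis (vertical) at the 5 concentration steps (horizontal) in 8 panels, 1 for each chemical, with a point for each library and a bar for the group mean. In 5 chemicals the C5 libraries lie at or below 9.93 CPM, and 1 trichostatin A C1 library, at 9.57 CPM, lies far below the other C1 libraries.

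The second CYP3A4 feature, CYP3A4_90076, had lower counts and was called in the same 7 chemicals. The call in panobinostat was lost without batch 1 (edgeR adjusted p = 0.109) and without batch 2 (0.0551), and that in valproic acid without batch 1 (0.132). In vorinostat it went from 29.3, 16.6 and 9.65 CPM at C1 to 0 in all 3 C5 libraries, which is at least 9.86-fold lower against a floor of 3 counts per library. In tacedinaline, where no C5 library had more than 3 counts, it was at least 58.7-fold lower, and in scriptaid at least 35.0-fold lower.

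CYP3A7_33787, the probe of the fetal enzyme, fell in 7 chemicals, with a log2 change of -6.46 in tacedinaline, -5.90 in mocetinostat, -4.76 in vorinostat, -4.20 in scriptaid and -3.75 in apicidin. Its levels with mocetinostat were 312, 292 and 306 CPM at C1 and 3.39, 4.13 and 7.04 CPM at C5. With scriptaid the C5 replicates were spread widely, at 18.3, 6.81 and 0.483 CPM. Its change was smaller in size in panobinostat (-1.61) and valproic acid (-1.22).

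CYP3A43_28477 fell in the same 7 chemicals. With scriptaid it went from 116, 87.6 and 63.4 CPM to 0, 0.852 and 1.93 CPM, a log2 change of -6.54 ± 0.847 (edgeR adjusted p = 1.5e-05). With vorinostat, where each C5 library had at most 3 counts, it was at least 28.3-fold lower. In valproic acid the change was -1.06 ± 0.324, and the edgeR adjusted p of 0.0362 became 0.0941 without batch 1 and 0.202 without batch 2. The call in panobinostat was lost without batch 3 (edgeR adjusted p = 0.0805).

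CYP3A5 fell less than CYP3A4. CYP3A5_27090 was called in 7 chemicals, from -5.29 ± 0.498 in mocetinostat to -1.18 ± 0.166 in valproic acid. In apicidin it went from 439, 398 and 329 CPM at C1 to 73.6, 60.9 and 78.2 CPM at C5, a log2 change of -2.45 beside -5.92 for CYP3A4_88797. In tacedinaline it kept 6.50, 12.4 and 13.6 CPM, from 403, 356 and 269 CPM.

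The size of the C5 against C1 change was compared between members over the 8 chemicals, with 7 pairs and an exact two-sided sign-flip permutation test whose smallest possible p is 0.00781. The chemicals share the 3 HepaRG batches. The log2 change of CYP3A5 was higher than that of CYP3A4 by 1.52 ± 1.24 (SD, n = 8 chemicals; exact p = 0.0156, adjusted 0.0219). It was higher in 7 of 8 chemicals, by 3.39 in apicidin and by 0.28 in panobinostat. CYP3A43 was higher than CYP3A4 by 0.82 ± 0.57 (n = 8, exact p = 0.0156, adjusted 0.0219) and CYP3A7 by 0.91 ± 0.83 (n = 8, exact p = 0.0312, adjusted 0.0365), each in 7 of 8 chemicals. Trichostatin A was the exception in all 3 pairs, with differences of -0.17, -0.02 and -0.44 for CYP3A5, CYP3A43 and CYP3A7. Without its replicate 3 these were 0.49, 0.89 and 0.14. The pair test used log2 CPM with a prior count of 2, which limits changes at low counts. In vorinostat each C5 library had at most 3 counts of CYP3A43, and the order depended on the measure. The edgeR changes there were -6.26 for CYP3A43 and -5.40 for CYP3A4_88797, while the pair test had a difference of 0.72. Without batch 1 the exact adjusted p was 0.117 for CYP3A43 and 0.082 for CYP3A7. Without batch 2 it was 0.0547 for CYP3A5 and CYP3A43 and 0.0859 for CYP3A7.

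The 2 CYP3A5 features did not move equally. The log2 ratio of CYP3A5_27090 over CYP3A5_28493 dropped by 0.80 ± 0.0497 (SD, n = 3 batches) in mocetinostat, by 0.78 ± 0.138 in panobinostat and by 0.83 ± 0.303 in valproic acid. It dropped by 1.09 ± 0.453 in apicidin and by 1.27 ± 0.567 in scriptaid. In these 5 chemicals the ratio was lower at C5 in all 3 batches, whereas in tacedinaline, trichostatin A and vorinostat the batches disagreed in sign. Without replicate 3 both remaining batches of trichostatin A were lower (-1.18 and -0.06). The ratio of CYP3A4_88797 over CYP3A4_90076 was lower at C5 in all 3 batches of 4 chemicals (apicidin, mocetinostat, scriptaid and tacedinaline). Its means there ran from -0.73 ± 0.652 to -1.38 ± 0.929, and the C5 libraries had 0 to 11 counts of CYP3A4_90076. These ratios are of log2 CPM with a prior count of 2, which limits changes at low counts. The edgeR change was also lower for CYP3A4_88797 in apicidin, mocetinostat and tacedinaline. In scriptaid the 2 edgeR changes were close (-6.65 for CYP3A4_88797 and -6.60 for CYP3A4_90076). In vorinostat they were -5.40 and -8.43, while the mean change of the ratio was -1.4 ± 1.64. In valproic acid only 1 of the CYP3A5 features was called. CYP3A5_28493 was at 285, 321 and 260 CPM at C1 and at 251, 229 and 198 CPM at C5, with a log2 change of -0.36 ± 0.182 (edgeR adjusted p = 0.245), while CYP3A5_27090 fell. Which transcripts each probe detects is not given in the sources used here.

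**Figure D3:**
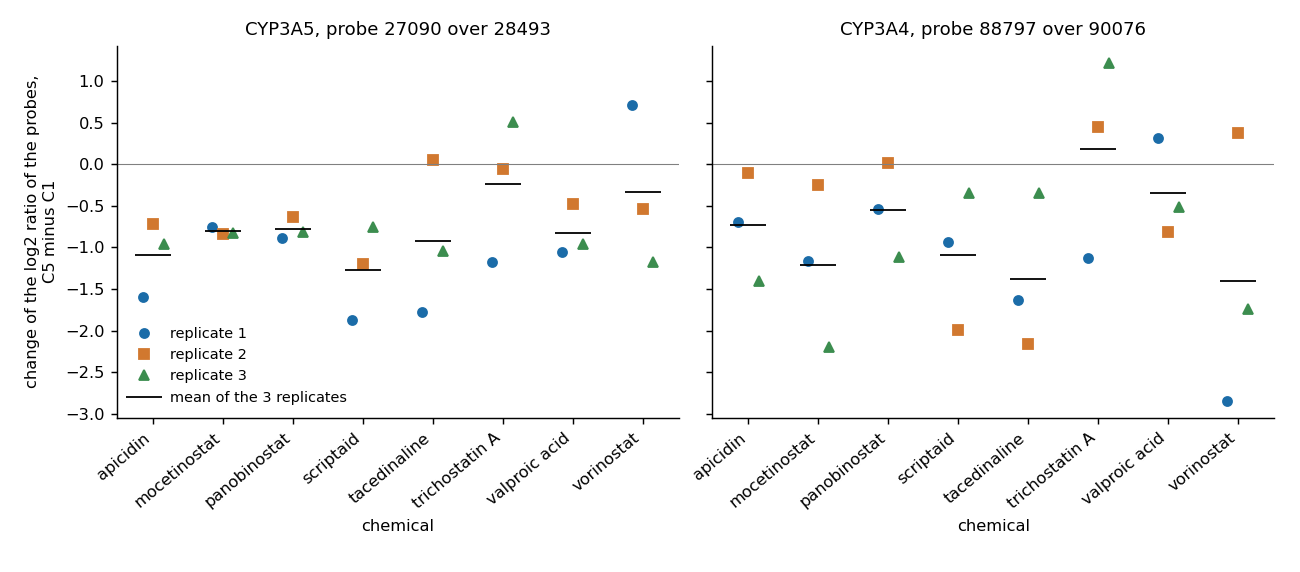
Change from C1 to C5 of the log2 ratio between the 2 probes of CYP3A5 (left) and of CYP3A4 (right), vertical axis, in 8 chemicals, horizontal axis, with a point for each replicate and a bar for their mean. The CYP3A5 ratio is lower at C5 in all 3 replicates of 5 chemicals. The CYP3A4 ratio is lower in all 3 replicates of 4 chemicals, where CYP3A4_90076 had few counts at C5.

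Of the CYP2C genes, CYP2C8_15146 fell in 7 chemicals. With scriptaid it went from 181, 190 and 286 CPM to 1.70, 1.14 and 0.483 CPM, a log2 change of -7.50 ± 0.904 (edgeR adjusted p = 7.33e-06). With apicidin it went from 152, 125 and 108 CPM to 1.84, 0.489 and 0.993 CPM, a change of -6.83 ± 0.383. No C5 library of vorinostat had more than 3 counts of CYP2C8, which was at least 97.6-fold lower there. In panobinostat it kept 17.9, 12.0 and 13.5 CPM, from 73.9, 82.5 and 71.2 CPM.

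CYP2C18_88963 was called in 5 chemicals and fell least in apicidin, from 74.0, 53.4 and 56.5 CPM to 31.3, 23.5 and 29.5 CPM, a change of -1.12 ± 0.257 (edgeR adjusted p = 0.00219). The change of CYP2C8 in the same libraries was -6.83. The change of CYP2C18 was largest in vorinostat, at -5.94 ± 0.531, with C5 levels of 0, 0.951 and 2.34 CPM. In panobinostat it was -0.32 ± 0.227 (edgeR adjusted p = 0.37) and in valproic acid -0.44 ± 0.211 (edgeR adjusted p = 0.211), neither called. Over the 8 chemicals the log2 change of CYP2C18 was higher than that of CYP2C8 by 1.88 ± 1.57 (SD, n = 8, exact p = 0.0156, adjusted 0.0219), in 7 of 8 chemicals and by 5.22 in apicidin.

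CYP2C19 gave few counts. CYP2C19_1714 fell in 7 chemicals, from C1 group means of 4.44 to 9.27 CPM. All 3 C5 libraries of mocetinostat had 0 counts, from 6.83, 5.90 and 6.48 CPM at C1, which is at least 7.77-fold lower. It was at least 11.4-fold lower in panobinostat, 10.2-fold in apicidin, 5.59-fold in tacedinaline and 2.77-fold in vorinostat. In scriptaid the C5 replicates were at 0, 0.284 and 3.87 CPM, and the edgeR adjusted p of 0.0386 became 0.293 without batch 1, 0.225 without batch 2 and 0.0772 after thinning. The call was also lost in tacedinaline without batch 2 (edgeR adjusted p = 0.128), in valproic acid without batch 1 (0.21) and in vorinostat without batch 2 (0.0626) or batch 3 (0.0569). CYP2C19_22478 did not follow. It was never called by edgeR in 8 chemicals at any step or by trend, with 1 positive and 1 negative change at an unadjusted p below 0.05 at C5, and DESeq2 called it 0 times in 40 values, 5 of which had no adjusted p. Its C5 change ran from -1.94 in trichostatin A (-1.42 without C1 replicate 3) to 1.94 in mocetinostat, and its group means at C5 lay between 1.11 and 7.35 CPM. The difference of CYP2C19 from CYP2C8 was 1.81 ± 2.07 (SD, n = 8, exact p = 0.0547, adjusted 0.0547), rests on counts at the floor, and gave an exact adjusted p of 0.0469 without trichostatin A.

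POR, which supplies electrons to all of these enzymes, did not share the decline. POR_5283 was at group means of 191 to 319 CPM at C1 and 150 to 383 CPM at C5. With tacedinaline it was at 232, 250 and 160 CPM at C1 and at 213, 229 and 195 CPM at C5, overlapping ranges in libraries where CYP3A4 had nearly vanished. Its log2 change there was 0.05 ± 0.152 (edgeR adjusted p = 0.809). The changes in apicidin, mocetinostat, panobinostat, valproic acid and vorinostat lay between -0.14 and 0.12. Over the 8 chemicals the log2 change of POR was higher than that of CYP3A4 by 4.58 ± 3.13 (SD, n = 8, exact p = 0.0156, adjusted 0.0219) and than that of CYP2C8 by 4.48 ± 3.02 (n = 8, exact p = 0.0156, adjusted 0.0219), in 7 of 8 chemicals for each. In trichostatin A, the exception, these differences were -0.51 and -1.37, and 0.76 and -0.44 without replicate 3.

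Scriptaid was the exception for POR. POR_5283 was at 225, 242 and 217 CPM at C1, at 120, 137 and 122 CPM at C3 and at 465, 417 and 267 CPM at C5. The 3 steps did not overlap. The rise at C5 was 0.79 ± 0.272 on the log2 scale (edgeR adjusted p = 0.0342), where 12.8% of all features were called rising, while the lower level at C3 was not called (-0.85 ± 0.274, edgeR adjusted p = 0.176). The call at C5 was lost without the low-count filter (edgeR adjusted p = 0.073), without batch 1 (0.30) and without batch 2 (0.262). POR_23019 had a C5 change of 1.16 ± 0.482 (edgeR adjusted p = 0.0762), which DESeq2 called.

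POR_5283 was also lower in vorinostat at C3, at 121, 131 and 120 CPM against 190, 236 and 150 CPM at C1 (-0.61 ± 0.179, edgeR adjusted p = 0.029), and back at 174, 161 and 218 CPM at C5. In panobinostat the 2 POR features differed. POR_23019 fell from 15.6, 14.3 and 17.6 CPM to 6.14, 6.01 and 7.70 CPM (-1.27 ± 0.351, edgeR adjusted p = 0.0147), a call that was lost without any 1 of the batches (edgeR adjusted p = 0.121, 0.0545 and 0.113), and POR_5283 was at 208, 194 and 172 CPM and then at 211, 162 and 176 CPM. The log2 ratio of POR_5283 over POR_23019 rose by 1.12 ± 0.188 (SD, n = 3 batches). In mocetinostat C2, POR_5283 was at 633, 641 and 292 CPM, so that replicates 1 and 2 stood apart from replicate 3.

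The next comparisons asked at which concentration the changes appeared. Of 96 tests, 5 were called falling at C2, 33 at C3, 50 at C4 and 61 at C5. The shares of all features called falling were 0.0206%, 3.16%, 8.14% and 13.4%. No member was called rising at C2, C3 or C4 by the main edgeR fit or DESeq2, against 0.0659%, 2.82% and 7.85% of all features in edgeR. In that fit 2, 4 and 2 positive changes of members had an unadjusted p below 0.05. Without the low-count filter edgeR called 4 members rising at C3 and 1 at C4, and without batch 3 it called 1 rising at C2. The shares of all features under these alternatives are not given here. The trend over all 5 concentrations called 60 falling and 0 rising, against 12.7% falling and 12.7% rising of all features, with 1 positive trend at an unadjusted p below 0.05.

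The 5 calls at C2 came from 2 chemicals, mocetinostat (3 calls, against 0.0383% of all features) and tacedinaline (2 calls, against 0.0883%). In mocetinostat CYP3A4_88797 was already at 80.8, 135 and 114 CPM at C2, from 626, 685 and 518 CPM (-2.41 ± 0.309, edgeR adjusted p = 0.0031). CYP3A4_90076 (-2.46) and CYP3A43 (-2.42) were called with it. CYP2C8 had a C2 change of similar size there, -2.50 ± 0.555, from 74.6, 115 and 62.4 CPM to 9.63, 21.6 and 11.3 CPM, which did not pass (edgeR adjusted p = 0.0757). CYP3A5_27090 in the same C2 libraries was at 510, 390 and 150 CPM against 455, 441 and 499 CPM at C1. The other 2 calls were in tacedinaline, CYP3A4_88797 (-1.10 ± 0.243, edgeR adjusted p = 0.0227) and CYP3A5_27090 (-0.84 ± 0.197, edgeR adjusted p = 0.0351). The count at C2 depended on single batches, being 1 without batch 1, 0 without batch 2 and 6 without batch 3.

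CYP2C8 was called first at C3 in 5 chemicals. In apicidin it was at 111, 92.5 and 99.7 CPM at C2 and at 6.08, 14.4 and 11.0 CPM at C3, a change against C1 of -3.61 ± 0.294. In tacedinaline it was at 105, 132 and 187 CPM at C2 and at 4.96, 5.13 and 4.06 CPM at C3, a change of -5.27 ± 0.302, where that of CYP3A4_88797 was -2.41 ± 0.259. In valproic acid CYP2C8 was at 108, 86.3 and 83.4 CPM at C3 and at 15.0, 12.2 and 7.16 CPM at C4. Each of these steps separated the groups without overlap.

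CYP2C18 came later in vorinostat. It was at 57.4, 57.5 and 124 CPM at C3, where CYP2C8 had fallen to 37.7, 26.7 and 41.0 CPM from 166, 214 and 171 CPM, and the change of CYP2C18 against C1 was -0.02 ± 0.301. It was at 23.3, 4.91 and 20.6 CPM at C4. In scriptaid CYP3A4_88797 was spread over the batches at C3, with 322, 57.5 and 67.4 CPM, and was called from C4. In panobinostat CYP3A4_88797, CYP3A5_27090 and CYP3A7 were called from C4 and CYP2C8 only at C5. The doses of a step differ between chemicals.

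**Figure D4:**
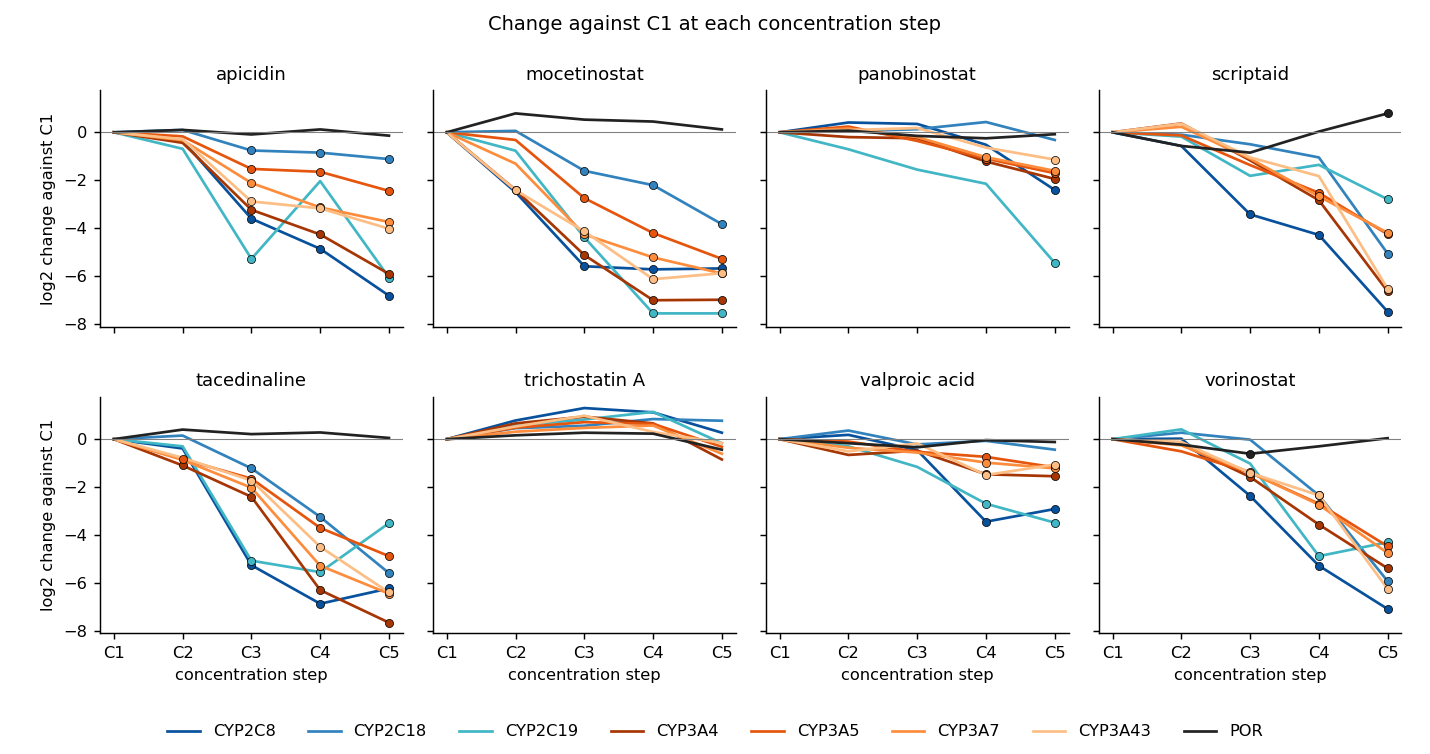
Log2 change against C1 (vertical axis) at the 5 concentration steps (horizontal axis) in 8 panels, 1 for each chemical, with a line for each gene by its feature with the highest mean count and a dot where the change was called. POR lies between -0.85 and 0.79 at all steps, and the P450 lines go down in 7 chemicals. CYP2C18 lies above the other P450 lines at C5 of apicidin, mocetinostat, panobinostat, trichostatin A and valproic acid.

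Trichostatin A gave 0 calls among the 12 features at C5 with edgeR, 3 at an unadjusted p below 0.05, and 0 with DESeq2, in which 1 had no adjusted p. Without the low-count filter edgeR called CYP3A4_88797 (-0.86, adjusted p = 0.0077), and without batch 3 it called 3 features. The shares of all features called under these settings are not given here, so these calls show only a shift from the main fit. The C1 group was split. CYP3A4_88797 was at 239, 231 and 9.57 CPM in its replicates 1, 2 and 3, and CYP2C8 at 76.3, 84.4 and 5.98 CPM. The third value was 4.07% of the mean of the other two for CYP3A4 and 7.44% for CYP2C8, and over the 21 C1 libraries of the other chemicals CYP3A4 ran from 137 to 852 CPM. POR_5283 was at 239, 226 and 157 CPM. The 8 hepatocyte markers summed to 50000, 54100 and 12900 CPM in the same libraries. The part of these markers in the member values of that library was not tested.

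Without that library 2 features were called falling at C5 in trichostatin A, against 0.645% of all features. They were CYP3A4_88797 (-1.41 ± 0.23, edgeR adjusted p = 0.00231) and CYP3A7_33787 (-1.05 ± 0.238, edgeR adjusted p = 0.0278). The change of CYP2C8 went from 0.27 with that library to -0.27 without it, neither called. The C5 libraries of CYP3A4_88797 were at 68.8, 109 and 84.4 CPM, below each library of C2, C3 and C4, which ran from 148 to 355 CPM. Against the mean of C2, C3 and C4, a comparison chosen after the values were seen, the change of CYP3A4_88797 was -1.61 ± 0.531 (edgeR adjusted p = 0.275), and 0 features were called, against 0.0% of all features, 8 having an unadjusted p below 0.05. With the C1 library left out, which enters this contrast only through the estimate of the spread, the same change had an SE of 0.19 and an edgeR adjusted p of 2.27e-05. Then 8 of 12 features were called falling, against 1.69% of all features. They included CYP2C8 (-0.80 ± 0.161), CYP3A5_27090 (-0.94 ± 0.149), CYP3A7 (-1.06 ± 0.19) and both POR features, POR_5283 with -0.66 ± 0.129 (edgeR adjusted p = 0.00395). CYP2C18 had a change of 0.15 ± 0.209.

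**Figure D5:**
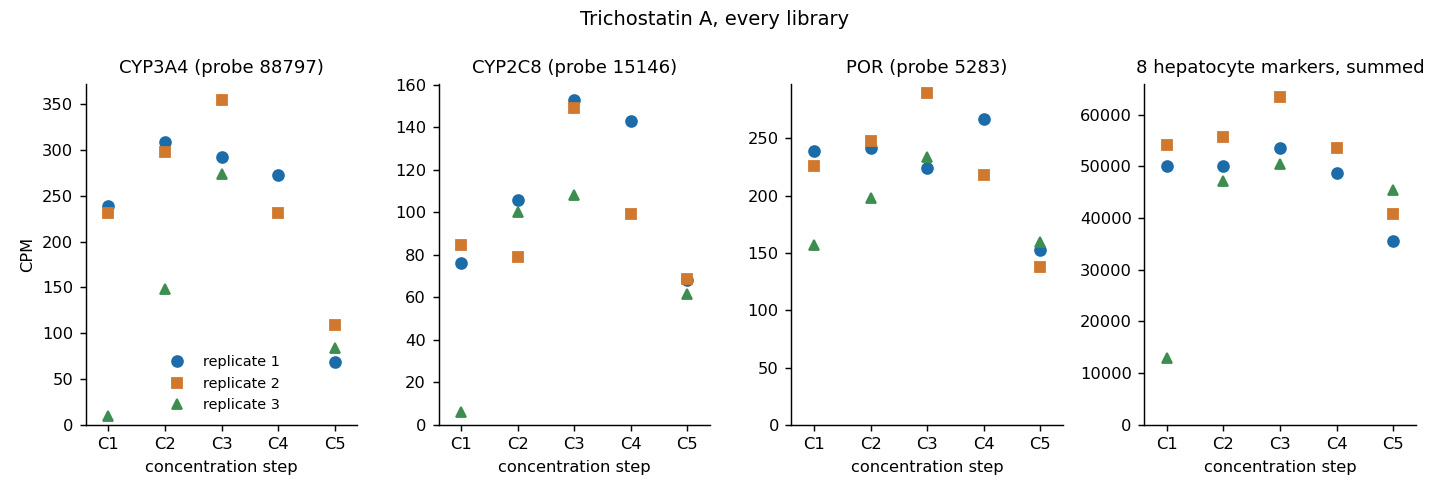
Level in CPM (vertical axes, from 0) of CYP3A4_88797, CYP2C8_15146, POR_5283 and the sum of 8 hepatocyte markers at the 5 concentration steps of trichostatin A (horizontal axes), with a point for each library. Replicate 3 at C1 is the lowest or among the lowest in each panel, and the 3 C5 libraries of CYP3A4 lie below all those of C2, C3 and C4.

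Genes listed as electron-transfer and membrane partners of P450 enzymes were counted in the same fits. The list held 8 genes of cytochrome b5, of the cytochrome b5 reductase family and of the progesterone receptor membrane components. At C5, 13 of 60 tests were called rising (21.7%) and 5 falling (8.33%), against 11.6% and 13.4% of all tests. CYB5R1, a member of the cytochrome b5 reductase family, rose in 7 chemicals, from 1.13 ± 0.182 in panobinostat (edgeR adjusted p = 0.000129) to 1.83 ± 0.148 in vorinostat (edgeR adjusted p = 2.76e-12). PGRMC2 rose in 4 chemicals, by 0.87 ± 0.133 in vorinostat (edgeR adjusted p = 1.57e-06), while PGRMC1 fell in 3 (apicidin, tacedinaline and vorinostat), with a log2 change of -1.48 ± 0.251 in tacedinaline (edgeR adjusted p = 5.12e-06). CYB5R3, the reductase of cytochrome b5, rose in 2.

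Of the 12 genes of haem synthesis and breakdown, 14 of 100 tests were called rising (14.0%) and 4 falling (4.00%), against 11.6% and 13.4% of all tests, so that the share rising was near that of all features. CPOX, a late enzyme of haem synthesis, rose in tacedinaline (1.75 ± 0.439) and vorinostat (1.88 ± 0.491). BLVRA, a biliverdin reductase, rose in 3 chemicals, and BLVRB, the other reductase of that kind, fell in 2. ALAS1, the rate-limiting enzyme of haem synthesis in liver, was called in scriptaid alone of the 8 chemicals. Its rise there was 2.16 on the log2 scale, in a chemical where 12.8% of all features were called rising.

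Regulators of the members were counted likewise. Over 21 transcription factors and cofactors known for CYP2C and CYP3A control, 83 of 221 tests were called falling (37.6%) and 2 rising (0.905%), against 13.4% and 11.6% of all tests. NR1I2_4673 fell in 7 chemicals, with a log2 change of -5.65 ± 0.817 in tacedinaline and -1.61 ± 0.437 in panobinostat (edgeR adjusted p = 0.0129). NR1I2_12051 fell in 6, not in panobinostat, where its change was -0.89 ± 0.353 (edgeR adjusted p = 0.0889). NR1I3_90298 fell in 7 chemicals, with -4.81 ± 0.568 in tacedinaline and -1.33 ± 0.431 in panobinostat, and NR1I3_87852 in 6. In trichostatin A the 2 NR1I2 features changed by -0.10 ± 0.354 and -0.05 ± 0.489, and the 2 NR1I3 features by 1.08 ± 0.538 and 1.44 ± 0.666, none called. Without C1 replicate 3 these changes were -0.36 ± 0.35, -0.55 ± 0.323, 0.53 ± 0.304 and 0.87 ± 0.481, again none called.

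Markers of hepatocytes moved with the members. The 8 hepatocyte genes (albumin and other secreted plasma proteins) fell in 52 of 64 tests (81.2%), against 13.4% of all tests, and rose in 0. Their summed level with tacedinaline was 39200 to 51900 CPM at C1 and 3000 to 4270 CPM at C5. In apicidin it was 43700 to 58200 CPM at C1 and 16600 to 19800 CPM at C5, and in panobinostat 40300 to 49000 CPM and 21600 to 28200 CPM. No hepatocyte marker but AHSG was at 0 in any library of C1 or C5, and the lowest ALB level was 805 CPM. The part of the hepatocyte markers in the member results was not tested.

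Biliary markers, which mark the other cells of a HepaRG culture, were called rising in 11 of 34 tests (32.4%), against 11.6% of all tests, and falling in 0. Their sum ran from 63.1 to 161 CPM over the C1 libraries and from 63.5 to 226 CPM over the C5 libraries, and it included EPCAM at or near 0. SOX9 and SPP1 rose in 5 chemicals each and gave 10 of the 11 calls. KRT19_3690 rose in 1 of 8 chemicals, with changes from -0.97 to 0.96, and KRT19_10816 in 0, with changes from -0.51 to 0.36. Mesenchymal markers were called falling in 14 of 40 tests and rising in 7, against 13.4% and 11.6% of all tests, with COL3A1 and ACTA2 falling and COL1A1 rising, and VIM and THY1 near 0. Enterocyte markers, which bear on CYP2C18 and CYP3A expression in gut, summed to at most 36.1 CPM, with CDX2 and FABP2 at or near 0. Their 12 falling calls of 23, against 13.4% of all tests, were those of LGALS4 and VIL1. The part of these lists in the member results was not tested.

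Across the 40 group means, the features other than members whose log2 CPM was most like CYP3A4_88797 among 11626 features with a mean of at least 10 counts were CYP3A7-CYP3A51P_24430 (Pearson r = 0.971), HNF4A_28261 (0.957), MGST2_27509 (0.956), FSTL1_23151 (0.949) and PDZK1_23054 (0.947). The symbol of the first of these contains that of the member CYP3A7, and it was kept in the list only because the whole symbol differs. Among the members, r with CYP3A4 was 0.98 for CYP3A43, 0.979 for CYP3A7, 0.954 for CYP3A5_27090, 0.912 for CYP2C8, 0.86 for CYP2C18, 0.812 for CYP2C19_1714 and -0.213 for POR_5283. The other features most like CYP2C8 were GLYAT_91279 (r = 0.972), ACSM2B_17528, SLCO1B1_14765, GBA3_88029 and ACMSD_89639 (0.964). GLYAT and ACSM2B are mitochondrial acyl-conjugation genes of the liver, and SLCO1B1 is a hepatic uptake transporter. Those most like POR_5283 were LPCAT3_20528 (r = 0.863), SLC25A25_27868, ZSCAN21_15202, ALAS1_28273 (0.765) and NPC1_4646 (0.763). These values are descriptions over 40 groups that share chemicals, batches and plates, and no test was made.

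A difference of the slope on log2 concentration between the 3 HepaRG batches was tested in each chemical. No member feature passed in edgeR with an adjusted p below 0.05, and none had an unadjusted p below 0.05. The lowest edgeR adjusted p of a member was 0.554, in trichostatin A. No other feature passed either, in any chemical, among 11631 (vorinostat) to 13104 (panobinostat) features tested. The test therefore does not set the members apart, and it does not show that the batches were alike.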

How the data were processed

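The authors deposited raw read counts, unnormalised whole numbers for each detector probe in each library of HepaRG cells, as 1 table. Per the labels, bcl2fastq 2.20.422, fastp 0.23.2, STAR 2.7.10b and DESeq2 1.38.0 were among the tools of the processing. Their settings, the genome build and the probe sequences are not given in the sources used here. Of 22069 rows, 1 without a value in 88 of 118 libraries was left out.

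Groups and doses came from the sample labels. Each chemical was fitted in R 4.3.3 with edgeR 4.0.16 (filterByExpr, TMM, quasi-likelihood F test) on the counts of its 5 concentrations, and p-values were adjusted by Benjamini and Hochberg over all features tested in that comparison. SE was taken as the size of the log2 change over the root of its F value. The trend is the slope on log2 dose, given as fitted change from C1 to C5. Differences between members used log2 CPM with a prior count of 2, each gene by its feature with the highest mean count, and C5 minus C1 within a batch. A group with at most 3 counts in every library was treated as at the floor. Bounds divide the mean C1 level by the level that 3 counts in each library of the higher step would give. They are not confidence limits and cover neither counting error nor the spread between batches. Reads are also not independent molecules. Genes of the CYP2C and CYP3A subfamilies are similar in sequence, and the sharing of reads between their probes is uncertain.

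Replicate numbers pair the samples, as the labels tie each to a HepaRG batch. In a check, deviations from the group mean had a median correlation of 0.0361 in 232 same-batch pairs and -0.0146 in 464 different-batch pairs. No 2 libraries were identical. The lowest chi-square per degree of freedom in 116 replicate pairs was 3.3. Alternatives were RLE scaling, no filter, DESeq2 1.42.0, the batch as a block, each batch left out, thinned counts, summed probes and other prior counts. The script was tested on simulated data.

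Named genes were all probes of the members, at most 4 features of each list of partners, haem genes and regulators (those called in most chemicals), NR1I2, NR1I3, and the 5 features most like CYP3A4, CYP2C8 and POR. Other genes are named to describe a list. Members and lists were chosen with earlier results of these data known. Promoters are from RefSeq (GRCh38.p14), read with Biopython 1.88. Of the 8 genes, 6 had an entry, not CYP2C18 and POR. The paper given with the series describes another experiment, and only the fold threshold came from it.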

Additional observations from a re-analysis of the deposited data

How the results depend on the processing

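The 61 falling member calls at C5 became 61 with RLE scaling, with DESeq2 and with the replicate block (HepaRG batch as a term), 62 without the low-count filter, 58 after thinning, 43 of 64 with probes summed per gene, 63 without trichostatin A C1 replicate 3, and 55 to 61 with 1 batch left out. The block changed no other count by over 1.5 times, and the cause of the shifts below was not tested. The shares of all features called under these alternatives are not given here, so the counts show only a shift from the main fit. Without the filter 8 members fell at C2, 0 rose at C5, 4 rose at C3 and 1 at C4, and 8 partner tests fell. DESeq2 gave 2 rising at C5, and summed probes 3 falling at C2. With 1 batch or that library left out, 0 to 2 members rose at C5, 0 to 6 fell and 0 to 1 rose at C2, 2 to 4 haem tests fell and 8 to 14 rose, 53 to 83 regulator tests fell and 1 to 2 rose, 7 to 12 biliary tests rose, 9 to 14 mesenchymal tests fell and 7 to 13 enterocyte tests fell.

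The difference of CYP2C19 from CYP2C8 passed with a prior count of 5 (2.2, exact adjusted p = 0.0391), with summed probes (3.06, exact adjusted p = 0.0391) and without trichostatin A (2.13). With 1 batch left out the difference from CYP3A4 was 1.40 to 1.71 for CYP3A5, 0.70 to 1.26 for CYP3A7 and 0.62 to 1.07 for CYP3A43, and those of CYP3A7 (without batch 1 or 2), CYP3A43 (without batch 1 or 2) and CYP3A5 (without batch 2) no longer passed.

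Changes in sign occurred only among changes that were not called. In trichostatin A, leaving out a batch or C1 replicate 3 gave -0.27 to 0.67 for CYP2C8, -0.75 to 0.65 for CYP2C19_1714, -1.18 to 0.09 for CYP3A4_90076, -0.93 to 0.17 for CYP3A5_27090, -0.28 to 0.47 for CYP3A5_28493, -0.57 to 0.17 for CYP3A43 and -1.66 to 0.28 for POR_23019. Leaving out C1 replicate 3 was chosen after seeing the data. The replicate block gave 0.15 for CYP2C19_1714 in trichostatin A and -0.13 for CYP2C19_22478 in vorinostat. For POR_5283, leaving out a batch gave -0.14 to 0.02 in panobinostat, -0.09 to 0.13 in tacedinaline and -0.26 to 0.32 in vorinostat, and no filter gave -0.05 in vorinostat. For POR_23019 in mocetinostat, DESeq2 and RLE gave -0.05, no filter -0.06, thinning -0.01 and leaving out a batch -0.14 to 0.28, and thinning gave -0.07 in vorinostat. Counts of CYP2C19, near the floor at C5, limit what can be said of it.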
